A study of Mus musculus with 10 samples.

Results

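The 9 genes described here encode proteins through which the liver senses glucose and controls its breakdown. They are *Slc2a2*, *Gckr*, *Khk*, *Pfkl*, *Pfkfb1*, *Pfkfb3*, *Pklr*, *Mlxipl* and *Txnip*. They were chosen by name for these roles, with earlier results of these data known. All 9 were found among the 12148 genes of the count table, and all 9 were tested. RNA was sequenced from whole livers of 10 wild-type germ-free (GF) C57BL6 mice, which carry no gut microbiota of their own. In the GF+MEV group, 5 mice received oral doses of 80 μg microbiota-derived extracellular vesicles (MEV), membrane particles shed by gut bacteria and purified from control specific-pathogen-free (SPF) mice, 2 times per week for 3 weeks. In the GF+PBS group, 5 mice received the carrier, phosphate-buffered saline (PBS), alone. The comparison asked how the liver transcriptome of mice without a microbiota responds to bacterial vesicles. The MEV are a mixed preparation, and the hour of liver collection, the feeding state at collection and the cages or litters of the mice are not given in the sources used here, so p-values measure only the spread between these 10 livers.

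Glucose enters hepatocytes through the transporter encoded by *Slc2a2*, and the regulatory protein encoded by *Gckr* restrains its use when glucose is low. Flux through glycolysis is then set at phosphofructokinase, which is turned up by a sugar bisphosphate that the bifunctional PFKFB enzymes make and break down, and at pyruvate kinase, the last step. Sugar phosphates also activate the transcription factor ChREBP (*Mlxipl*), which binds carbohydrate response elements, paired E-boxes, in the promoters of target genes. *Pklr* and *Txnip* are textbook ChREBP targets, and the *Txnip* product in turn limits glucose uptake.

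The promoter stretches of these ChREBP targets are shown first, because among the promoter windows of the 9 genes they were the only ones to hold any of the 3 motifs searched. A window was the 250 bases before to 50 bases after a RefSeq start on GRCm38.p6, and all 9 genes had at least 1. Capitals mark matches to a carbohydrate response element-like pattern, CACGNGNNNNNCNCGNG, to the FOXO site GTAAACA or to a glucocorticoid response element-like pattern, GNACANNNTGTNC, each searched on both strands, and no match overlapped another. The *Pklr* stretch runs along the plus strand at chr3:89136373-89136494, from 250 to 129 bases before the start of 1 of its 2 windows, and the *Txnip* stretch along the plus strand at chr3:96557777-96557913, from 180 to 44 bases before its start.
Pklr: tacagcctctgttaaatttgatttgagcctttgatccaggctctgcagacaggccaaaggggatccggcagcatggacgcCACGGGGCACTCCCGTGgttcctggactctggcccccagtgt
Txnip: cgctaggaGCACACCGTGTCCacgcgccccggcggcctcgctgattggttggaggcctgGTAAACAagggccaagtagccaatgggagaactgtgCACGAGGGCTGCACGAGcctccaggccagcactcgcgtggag
The *Pklr* stretch held the carbohydrate response element-like match alone, beginning at position -170 from the start. The *Txnip* stretch held all 3 patterns, the glucocorticoid type at -172, the FOXO site at -121 and the carbohydrate response element-like match at -85. Of 32851 promoter windows of the same length, 0.365% held the carbohydrate response element-like pattern, 3.65% the FOXO site and 0.475% the glucocorticoid type. These are matches of letters and not shown to be bound sites.

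Libraries held between 15746119 and 20523649 counts on genes. Levels are given as CPM, counts scaled to a common library size by the TMM method (factors from 0.890 to 1.04), and the groups were compared with the quasi-likelihood test of edgeR, adjusted by Benjamini-Hochberg over all 12147 tested genes, in which a gene was called at an adjusted p under 0.05. Over all genes 928 were called (7.64%), 500 higher in GF+MEV (4.12%) and 428 lower (3.52%), and 898 had no overlap between the groups (7.39%). Higher genes thus made up 53.9% of the calls, against 41.2% with upper-quartile normalization and 32.5% with library sizes alone. Over the same 12147 genes DESeq2 called 1201 (657 higher, 544 lower) and limma-voom 946 (517 higher, 429 lower). Hepatocyte markers summed to between 88760 and 107142 CPM in GF+MEV livers and between 92005 and 108209 CPM in GF+PBS livers. The library of GF+MEV replicate 2 stood apart. Its counts differed from those of the 4 other GF+MEV livers by a chi-square per gene of 133.2 to 174.9, where every other pair within a group reached at most 24.9, and it had the lowest TMM factor, 0.890. Without it 786 genes were called, *Txnip* and *Pfkfb3* were still the called genes among the 9, and their log2 changes were 1.54 and 1.90. Because the tissue is bulk liver, fewer cells of a type and less RNA per cell cannot be told apart.

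Of the 9 genes, *Txnip* and *Pfkfb3* rose in GF+MEV livers and none fell by edgeR, DESeq2 or limma-voom. At an unadjusted edgeR p under 0.05, 1 gene was lower, *Mlxipl*. It ranked 2258 by p-value among 12147 genes, so at least that many genes passed this unadjusted level in either direction. *Txnip* was 2.83-fold and *Pfkfb3* 3.79-fold higher than in GF+PBS livers, and for both every GF+MEV liver exceeded every GF+PBS liver. The 7 others, including the transporter, the regulatory protein *Gckr*, liver pyruvate kinase and ChREBP itself, were not called. The 2 higher calls among 9 genes stand beside a background of 4.12%. Because the 9 genes were chosen with earlier results of these data known, this comparison is a description only. The median log2 fold change of the 9 genes was -0.03, with 4 above 0 and 5 below, and the median over all tested genes was -0.0037, so the 9 genes as a group had no common direction.

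**Figure D1:**
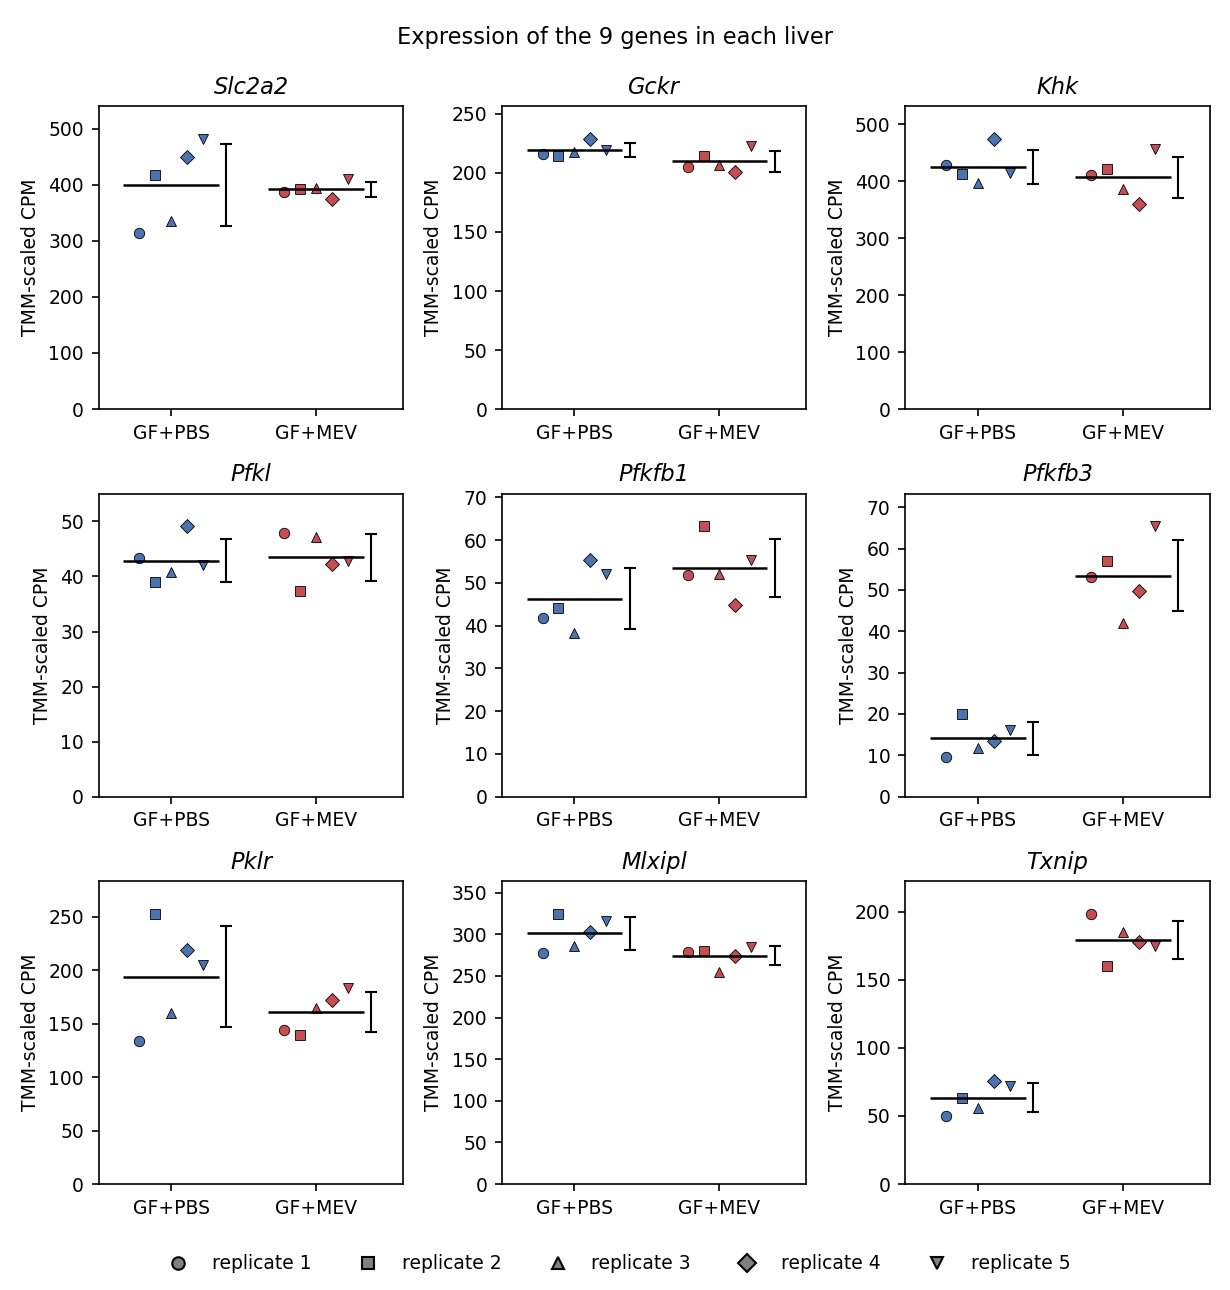
TMM-scaled CPM (vertical axes, from 0) of the 9 genes in the 5 GF+PBS (blue) and 5 GF+MEV (red) livers, 1 point per liver with its shape showing the replicate number, a horizontal line for the mean and a bar for 1 SD on either side. *Pfkfb3* and *Txnip* are apart between the groups, and the points of the 7 other genes overlap.

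Entry and trapping of hexoses came first. *Slc2a2* (ENSMUSG00000027690, chr3:28697903-28731359 of GRCm38, plus strand) encodes GLUT2, the low-affinity transporter that lets hepatic glucose follow blood glucose in both directions. It was counted at 386, 392, 394, 375 and 411 CPM in GF+MEV replicates 1 to 5 and at 313, 418, 335, 450.3 and 482 CPM in GF+PBS replicates 1 to 5. The GF+MEV livers lay inside the range of the GF+PBS livers. Means were 392 ± 13 CPM and 399.6 ± 73.0 CPM (± SD, 5 mice per group), which corresponded to a log2 change of -0.03 ± 0.12 (SE from log2 CPM, edgeR quasi-likelihood fit, Benjamini-Hochberg adjusted p = 0.912). The limma-voom 95% interval of the difference ran from -0.23 to 0.21. Relative to the mean, the SD was 3.33% in GF+MEV and 18.3% in GF+PBS, a difference in spread that was not tested.

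*Gckr* (ENSMUSG00000059434, chr5:31297443-31327314, plus strand) encodes a nuclear regulatory protein that restrains hepatic glucose use when glucose is low. It stood at 205, 215, 207, 200.4 and 222 CPM in the GF+MEV livers and at 216, 214, 218, 229 and 219 CPM in the GF+PBS livers. The groups overlapped, and in GF+PBS these were the tightest values among the 9 genes, with an SD of 2.55% of the mean. The means of 209.8 ± 8.77 CPM and 219 ± 5.60 CPM (± SD, 5 mice per group) gave a log2 change of -0.07 ± 0.03 (SE from log2 CPM, edgeR quasi-likelihood fit, Benjamini-Hochberg adjusted p = 0.504, limma-voom 95% interval -0.17 to 0.04).

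*Khk* (ENSMUSG00000029162, chr5:30921431-30931248, plus strand) encodes ketohexokinase, which phosphorylates fructose without the feedback that limits glucose breakdown. Its values were 411, 421, 387, 359.6 and 456 CPM in GF+MEV livers and 428, 412, 397, 474 and 414 CPM in GF+PBS livers. The groups overlapped over most of their range. Means of 407 ± 36.2 CPM and 425 ± 29.6 CPM (± SD, 5 mice per group) corresponded to a log2 change of -0.06 ± 0.07 (SE from log2 CPM, edgeR quasi-likelihood fit, Benjamini-Hochberg adjusted p = 0.667, limma-voom 95% interval -0.21 to 0.08).

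The phosphofructokinase step held the largest rise among the 9 genes, in a regulator and not in the enzyme. *Pfkl* (ENSMUSG00000020277, chr10:77986947-78010083, minus strand), the liver form of phosphofructokinase, stood at 47.8, 37.3, 47.2, 42.3 and 42.9 CPM in GF+MEV livers and at 43.4, 39.1, 40.9, 49.1 and 42.0 CPM in GF+PBS livers. Means were 43.5 ± 4.26 CPM and 42.9 ± 3.82 CPM (± SD, 5 mice per group), with a log2 change of 0.02 ± 0.09 (SE from log2 CPM, edgeR quasi-likelihood fit, Benjamini-Hochberg adjusted p = 0.924, limma-voom 95% interval -0.15 to 0.19). The sign of this value turned with the scaling, to -0.02 with upper-quartile normalization and -0.05 with library sizes alone, so no direction was assigned. Per kilobase of exon, the paralog *Pfkm*, named after its values were seen, reached 8.45 ± 0.169 in GF+MEV and 9.89 ± 1.6 in GF+PBS livers against 6.52 ± 0.638 and 6.43 ± 0.573 for *Pfkl* (± SD, 5 mice per group). Skeletal muscle markers summed to between 203 and 698 CPM in GF+PBS livers and between 239 and 329 CPM in GF+MEV livers, none of the 5 tested was called by edgeR, DESeq2 or limma-voom (1 was lower at an unadjusted edgeR p under 0.05), and their part in the *Pfkm* level was not tested.

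*Pfkfb1* (ENSMUSG00000025271, chrX:150588229-150643878, plus strand) encodes the liver form of the bifunctional PFKFB enzyme, which hormones switch between making and removing the activator of phosphofructokinase. It was counted at 51.8, 63.2, 52.1, 44.7 and 55.4 CPM in GF+MEV livers and at 41.6, 44.0, 38.3, 55.4 and 52.0 CPM in GF+PBS livers. GF+PBS replicates 4 and 5 lay among the GF+MEV values, and the other 3 GF+PBS livers lay below all of them. The means of 53.4 ± 6.71 CPM and 46.3 ± 7.19 CPM (± SD, 5 mice per group) differed by 0.21 ± 0.13 on the log2 scale (SE from log2 CPM, edgeR with Benjamini-Hochberg adjusted p = 0.295, limma-voom 95% interval -0.02 to 0.44).

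*Pfkfb3* (ENSMUSG00000026773, chr2:11471433-11554077, minus strand) encodes the inducible form of the same enzyme, whose kinase side strongly outweighs its phosphatase side. Its values were 53.1, 57.1, 42.1, 49.7 and 65.4 CPM in GF+MEV livers and 9.50, 19.9, 11.7, 13.4 and 16.2 CPM in GF+PBS livers. The lowest GF+MEV liver was above the highest GF+PBS liver, and counts ranged from 827 to 1018 and from 171 to 355 reads. *Pfkfb3* rose to 53.5 ± 8.65 CPM from 14.1 ± 4.04 CPM (± SD, 5 mice per group), which corresponded to a log2 change of 1.92 ± 0.21 (SE from log2 CPM, edgeR quasi-likelihood fit, Benjamini-Hochberg adjusted p = 3.3e-06, limma-voom 95% interval 1.59 to 2.30). It ranked 46 by p-value and 50 by size of change among 12147 genes. Exact permutation of the mice gave a two-sided p of 0.00794, the smallest that 5 against 5 allows.

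The balance between the inducible and liver forms therefore differed between the groups. The ratio of *Pfkfb3* to *Pfkfb1* counts was 1.02, 0.903, 0.808, 1.11 and 1.18 in GF+MEV livers and 0.228, 0.452, 0.304, 0.242 and 0.311 in GF+PBS livers. The ratios did not overlap. The mean log2 ratio was higher by 1.74 in GF+MEV (two-sided p = 0.00794 by exact permutation). This ratio uses the *Pfkfb3* counts again and adds that *Pfkfb1* did not move by as much.

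The other genes of the family were of lower abundance. *Pfkfb2*, the heart form, rose from 8.17 ± 1.46 CPM to 18.3 ± 3.50 CPM (± SD, 5 mice per group), with a log2 change of 1.16 (edgeR with Benjamini-Hochberg adjusted p = 0.00011). It was counted at 15.3, 23.2, 20.8, 15.8 and 16.3 CPM in GF+MEV livers and at 6.66, 8.29, 8.09, 7.28 and 10.5 CPM in GF+PBS livers, again without overlap. Part of its exons, 17.4%, is shared on the same strand with Gm29427, so its counts are uncertain to that extent. *Pfkfb4* stood near 1 CPM in every liver, with a log2 fold change of 0.03 (edgeR with Benjamini-Hochberg adjusted p = 0.965). Per kilobase of exon, *Pfkfb1* remained the most abundant of the family at 13.3 ± 1.67 in GF+MEV livers, with *Pfkfb3* at 7.07 ± 1.14 and *Pfkfb2* at 2.52 ± 0.483 (± SD, 5 mice per group). In GF+PBS livers the same levels were 11.5 ± 1.79, 1.87 ± 0.535 and 1.13 ± 0.202.

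**Figure D2:**
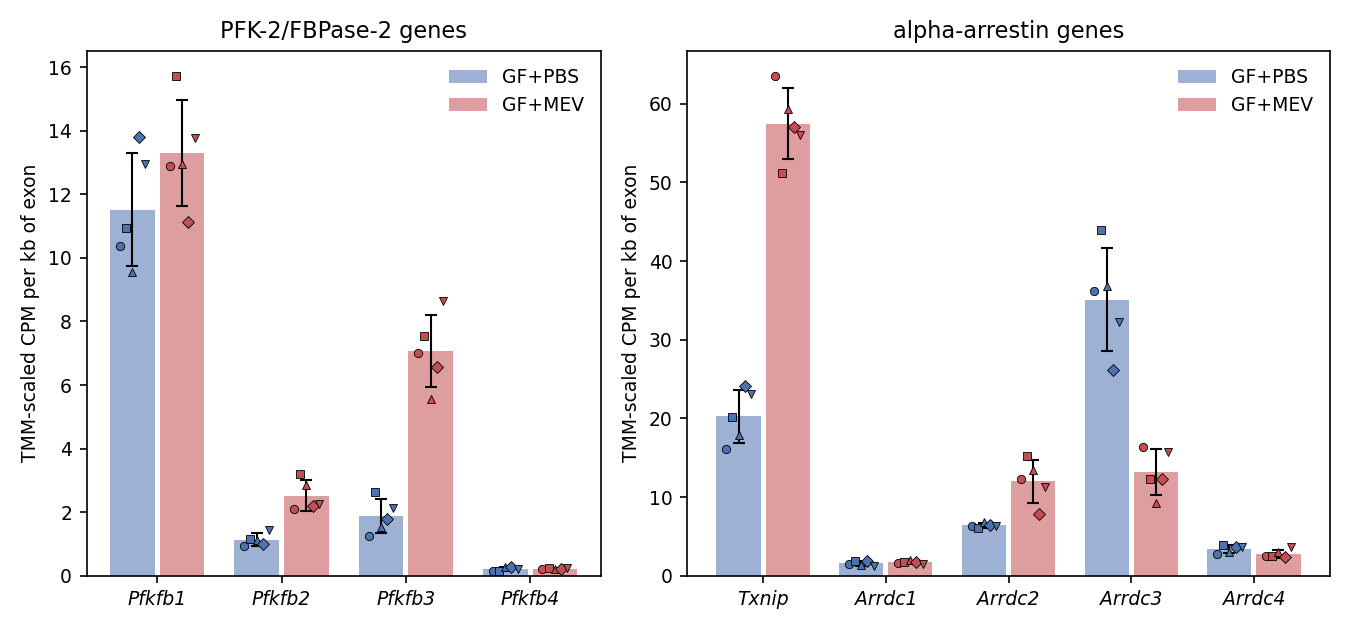
Levels per kilobase of exon (TMM-scaled CPM per kb, vertical axes from 0) of the PFKFB genes (left) and the alpha-arrestin genes (right) in GF+PBS (blue) and GF+MEV (red) livers, with bars for the means, error bars for 1 SD (n = 5 mice per group) and 1 point per liver. *Pfkfb3* and *Pfkfb2* rose and *Pfkfb1* was not called, and *Txnip* and *Arrdc2* rose while *Arrdc3* fell.

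*Pklr* (ENSMUSG00000041237, chr3:89136142-89146784, plus strand) encodes the liver and red-cell pyruvate kinase, which closes glycolysis. The gene whose promoter carries the carbohydrate response element-like match printed above was counted at 144, 139.6, 164, 172 and 183 CPM in GF+MEV livers and at 134, 253, 160.0, 219 and 204 CPM in GF+PBS livers. GF+PBS replicate 1 was the lowest of all 10 livers, replicate 3 lay among the GF+MEV values, and the 3 others lay above all of them. Means were 161 ± 18.6 CPM and 194 ± 47.3 CPM (± SD, 5 mice per group), which corresponded to a log2 change of -0.27 ± 0.18 (SE from log2 CPM, edgeR quasi-likelihood fit, Benjamini-Hochberg adjusted p = 0.292). Its limma-voom 95% interval, from -0.55 to 0.06, was the widest among the 7 genes not called. Single GF+PBS livers moved this value, to -0.16 without replicate 2 and to -0.38 without replicate 1 (edgeR with Benjamini-Hochberg adjusted p = 0.529 and 0.065), and it was called in neither case. Exons of *Pklr* share 711 bp (22%) with *Hcn3* on the opposite strand, and whether counting used strand is not given in the sources used here.

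*Mlxipl* (ENSMUSG00000005373, chr5:135089890-135138382, plus strand) encodes ChREBP, the sugar-activated transcription factor. It stood at 279, 280.3, 255, 273 and 284 CPM in GF+MEV livers and at 277, 325, 286, 303 and 315 CPM in GF+PBS livers. GF+PBS replicate 1 alone fell among the GF+MEV values, and the 4 others were higher than every GF+MEV liver. The means of 274 ± 11.4 CPM and 301 ± 19.8 CPM (± SD, 5 mice per group) gave a log2 change of -0.13 ± 0.05 (SE from log2 CPM, edgeR quasi-likelihood fit, Benjamini-Hochberg adjusted p = 0.197). The limma-voom 95% interval, which is not adjusted for the number of genes, ran from -0.25 to -0.01, and *Mlxipl* was not called. ChREBP is controlled largely through its protein and its isoforms, which gene counts do not measure.

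*Txnip* (ENSMUSG00000038393, chr3:96557957-96561883, plus strand) encodes thioredoxin-interacting protein, an alpha-arrestin that removes glucose transporters from the cell surface and binds thioredoxin. It was counted at 198, 159.9, 185, 178 and 175 CPM in GF+MEV livers and at 50.4, 63.0, 56.0, 75.3 and 72.1 CPM in GF+PBS livers. The lowest GF+MEV liver, at 159.9 CPM, lay well above the highest GF+PBS liver, at 75.3 CPM. *Txnip* rose from 63.4 ± 10.5 CPM to 179 ± 14.1 CPM (± SD, 5 mice per group), which corresponded to a log2 change of 1.50 ± 0.12 (SE from log2 CPM, edgeR quasi-likelihood fit, Benjamini-Hochberg adjusted p = 2.8e-07, limma-voom 95% interval 1.30 to 1.73). Of 12147 genes it ranked 21 by p-value and 87 by size of change. Permuted exactly, its CPM values gave a two-sided p of 0.00794, again the smallest possible.

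Of both ChREBP targets with a carbohydrate response element-like match, *Txnip* was called higher at 1.50 and *Pklr* was not called at -0.27, and the difference between these changes was not tested. The *Txnip* promoter stretch also held the FOXO and glucocorticoid type letters that the *Pklr* stretch lacked, which is a description of these letters only. Exons of *Txnip* share 606 bp (19.4%) with the antisense gene Gm15441 on the opposite strand, which was not among the genes analysed here, so reads of both could not be told apart if counting ignored strand. Of the other genes, *Mlxipl* shares 4.24% of its exon length with the antisense Gm43500 and *Pfkfb1* 3.06% with *Apex2*.

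**Figure D3:**
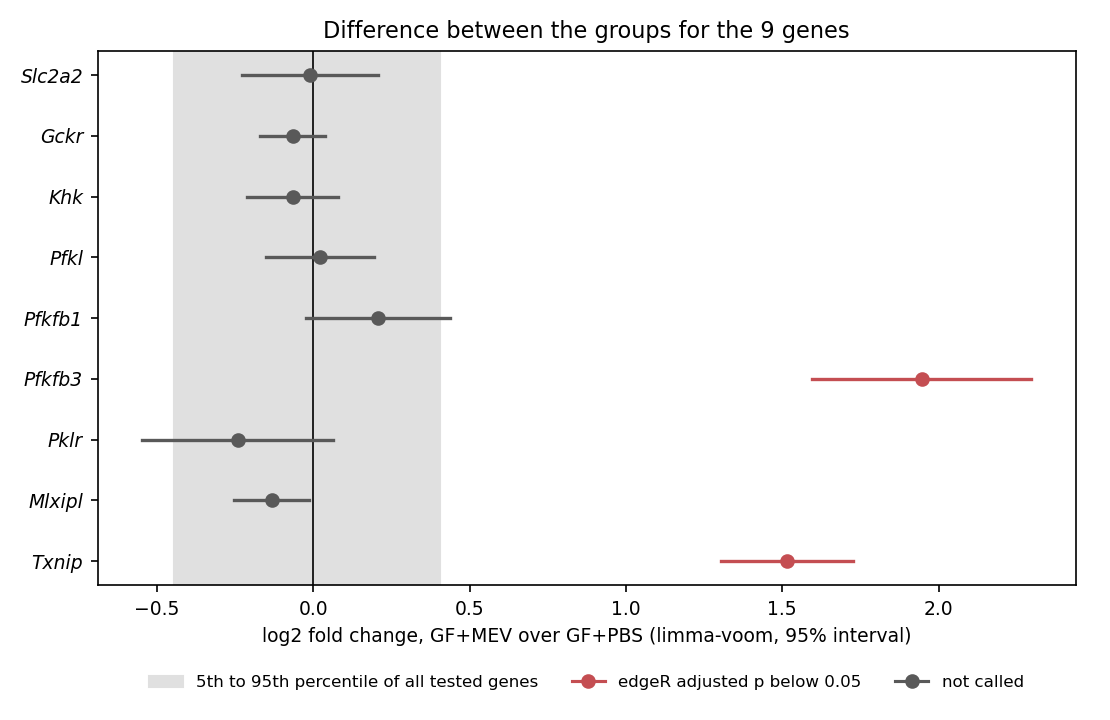
Log2 fold change of GF+MEV over GF+PBS (horizontal axis) for the 9 genes, with points for the limma-voom estimate and bars for its 95% interval, red where the edgeR adjusted p was under 0.05, and a grey band for the 5th to 95th percentile of edgeR values over all 12147 tested genes (-0.45 to 0.40). *Pfkfb3* and *Txnip* lie beyond the band, and the point estimates of the 7 other genes lie inside it.

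*Txnip* belongs to the alpha-arrestins, and its relatives moved in different directions. *Arrdc3*, which acts on beta-adrenergic receptors and other surface proteins, fell from 219.7 ± 41.0 CPM to 82.5 ± 18.0 CPM (± SD, 5 mice per group), with a log2 change of -1.41 (edgeR with Benjamini-Hochberg adjusted p = 2.8e-05). Its values were 102, 76.9, 58.1, 77.1 and 98.2 CPM in GF+MEV livers and 227, 276, 230.4, 164 and 202 CPM in GF+PBS livers, without overlap. *Arrdc2* rose from 20.6 ± 0.853 CPM to 38.8 ± 8.88 CPM (log2 change 0.91, edgeR with Benjamini-Hochberg adjusted p = 0.00051). *Arrdc4*, the closest relative of *Txnip* and itself a ChREBP target, had a log2 fold change of -0.28 (edgeR with Benjamini-Hochberg adjusted p = 0.248), and *Arrdc1* of 0.13 (adjusted p = 0.692). Per kilobase of exon, *Arrdc3* at 35.1 ± 6.55 exceeded *Txnip* at 20.3 ± 3.37 in GF+PBS livers, whereas in GF+MEV livers *Txnip* at 57.5 ± 4.53 exceeded *Arrdc3* at 13.2 ± 2.87 (± SD, 5 mice per group). The thioredoxin genes *Txn1*, *Txn2* and *Txnrd1*, which encode thioredoxins and a reductase that recycles them, had log2 fold changes of -0.10, 0.01 and 0.02 and were not called.

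Among the genes whose levels across the 10 livers were most like those of *Txnip* were *Got1* (Pearson r = 0.991), the cytosolic aspartate aminotransferase, and *Nfkbia* (r = 0.989), the NF-κB inhibitor. Likeness was computed for the 11834 genes that averaged 1 CPM or more. Both were themselves called higher in GF+MEV livers, by 1.27 and 0.92 on the log2 scale, so the correlations largely restate the difference between the groups and are given as a description.

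The order of the 9 genes by RNA level is given per kilobase of all annotated exon sequence, so it also depends on exon length. Protein was not measured. In GF+PBS livers *Khk* stood highest at 237 ± 16.5, followed by *Slc2a2* at 69.4 ± 12.7, *Pklr* at 59.9 ± 14.6, *Mlxipl* at 54.4 ± 3.57 and *Gckr* at 50.6 ± 1.29 (± SD, 5 mice per group). The ranges of these last 4 overlapped from each to the next, so their order is not fixed by these data. *Txnip* at 20.3 ± 3.37, *Pfkfb1* at 11.5 ± 1.79, *Pfkl* at 6.43 ± 0.573 and *Pfkfb3* at 1.87 ± 0.535 followed, each with a range apart from the next. In GF+MEV livers *Khk* (226 ± 20.1) and *Slc2a2* (68.0 ± 2.27) kept their places, and *Txnip* at 57.5 ± 4.53 lay next, above *Pklr* (49.6 ± 5.74), *Mlxipl* (49.5 ± 2.05) and *Gckr* (48.4 ± 2.02). *Txnip* overlapped in range with *Pklr* and, narrowly, with *Mlxipl* and *Gckr*. *Pfkfb3* at 7.07 ± 1.14 and *Pfkl* at 6.52 ± 0.638 also overlapped there, while in GF+PBS livers *Pfkl* was above *Pfkfb3* in every liver.

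Within GF+PBS, replicates 1 and 3 held the lowest values for 6 of the 9 genes, *Slc2a2*, *Pfkfb1*, *Pfkfb3*, *Pklr*, *Mlxipl* and *Txnip*, and for none the highest. Over all tested genes the same livers were lowest in 18.3% and highest in 15.4%. Among ChREBP partners and target genes they were lowest in 17 of 22, for example *Fasn* at 364 and 391 CPM, where the 3 others had 855 to 916 CPM. In the other lists described below, GF+PBS replicates 1 and 3 were lowest in 7 of 11 genes of pyruvate fate. The counts were 4 of 7 for glucose-producing steps and 4 of 7 for fructose and polyol enzymes. They were 4 of 22 for other glycolytic enzymes, 1 of 6 for hexose transporters and 2 of 8 for alpha-arrestins and thioredoxins. Replicates 1 and 3 were also the closest of the 20 pairs within groups over all genes, with a chi-square per gene of 6.33, which is above sampling noise. GF+PBS replicates 4 and 5 followed at 7.17. The pattern was noticed after the values were seen and was not tested. With replicates 1 and 3 summed and 4 and 5 summed, *Txnip* and *Pfkfb3* were still the called genes among the 9.

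**Figure D4:**
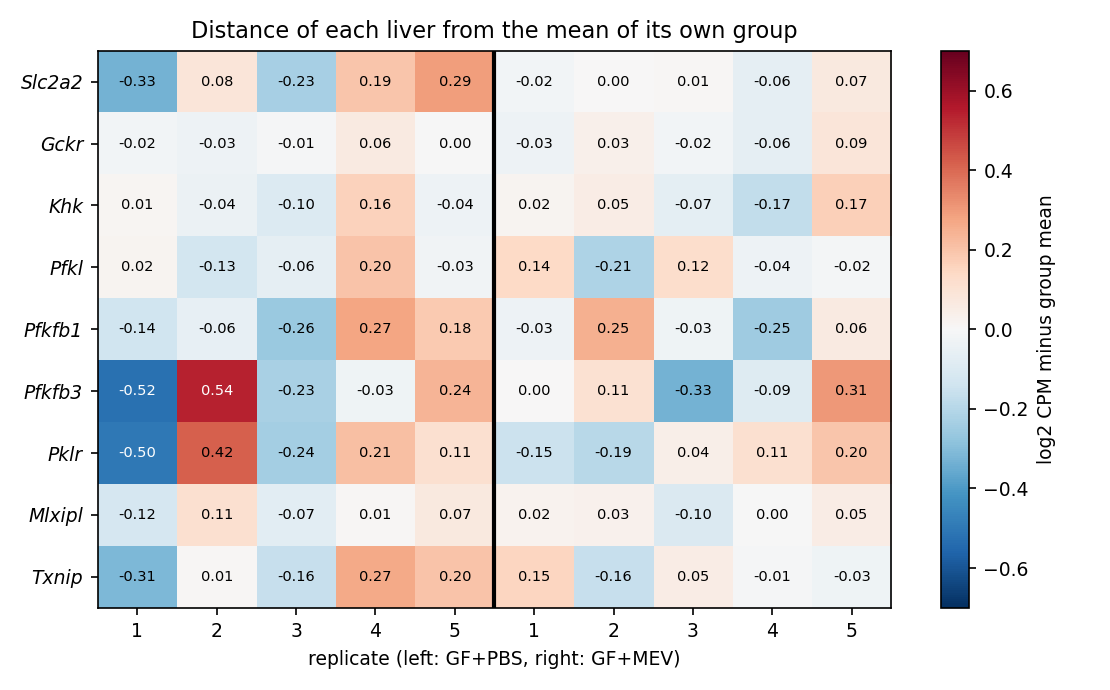
Log2 CPM of each liver minus the mean of its own group (colour and printed value) for the 9 genes, with the 5 GF+PBS livers on the left and the 5 GF+MEV livers on the right of the line. GF+PBS replicates 1 and 3 are below their group mean for the 6 genes named above, down to -0.52 for *Pfkfb3*, and *Gckr* varies least within GF+PBS.

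The wider pathway was read in 7 lists of 88 distinct genes, also chosen with earlier results of these data known. Of the 88, 80 were tested. Of these 10 were called higher, 2 lower and 68 not, beside 7.64% called over all genes. Another count, of genes with no overlap between groups, gave 13 of the 80, beside 7.39% over all genes. The 80 had a median log2 fold change of -0.01. Among the 22 other glycolytic enzymes *Pfkfb2* was the only gene called, and the median was 0.00. Among the most abundant of those not called, *Gapdh* and *Ldha* had log2 fold changes of -0.04 and 0.13. At an unadjusted edgeR p under 0.05, 2 genes of this list were higher and 2 lower. DESeq2 called 2 higher and limma-voom 1.

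Of 7 genes of glucose-producing steps 3 rose. *G6pc*, the catalytic subunit of glucose-6-phosphatase, rose by 2.28, *Pck1*, which commits oxaloacetate to gluconeogenesis, by 1.71 and *Slc37a4*, the transporter that feeds glucose-6-phosphatase, by 0.49 on the log2 scale (edgeR with Benjamini-Hochberg adjusted p = 1.4e-06, 3.9e-05 and 0.015). *Fbp1*, *Pcx* and *G6pc3* were not called, at 0.00, 0.09 and -0.19. At the phosphofructokinase step, neither *Pfkl* nor *Fbp1*, the enzyme of the opposing reaction, was called, while the regulator *Pfkfb3* was.

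Of 22 tested ChREBP partners and target genes 3 rose and 1 fell, and the median log2 fold change was -0.08. At an unadjusted edgeR p under 0.05, 3 were higher and 6 lower, DESeq2 called 3 higher and 2 lower, and limma-voom called 3 higher and 1 lower. *Mlxip*, which encodes MondoA, the sugar-sensing relative of *Mlxipl*, rose from 7.28 ± 0.824 CPM to 10.7 ± 1.19 CPM (0.55 on the log2 scale, adjusted p = 0.0056 by edgeR with Benjamini-Hochberg). *Ppp1r3b*, a subunit that steers a phosphatase to glycogen, rose by 1.24 (adjusted p = 0.00044) and *Rgs16*, an inhibitor of G protein signalling, by 1.45 (adjusted p = 0.014). *Mid1ip1*, which promotes the polymerization of acetyl-CoA carboxylase, fell by 1.26 on the log2 scale (adjusted p = 0.00019), with 25.5% of its exon length shared with an antisense gene. The lipogenic targets *Scd1*, *Fasn* and *Thrsp* had values of 0.11, -0.50 and 0.49 and were not called. The list held genes called in both directions, and *Pklr* and *Mlxipl*, at -0.27 and -0.13, were not called.

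Hexose transporters other than *Slc2a2* had 6 tested genes, of which 2 rose. *Slc2a1*, which encodes GLUT1, the transporter of most cells, rose from 13.2 ± 0.999 CPM to 19.3 ± 3.86 CPM (0.55 on the log2 scale, edgeR with Benjamini-Hochberg adjusted p = 0.012), and *Slc45a3* rose by 1.10 (adjusted p = 7.0e-06), with 13.5% of its exons shared on the same strand with Gm29103. *Slc2a9*, *Slc2a8* and *Slc2a5* were not called, at -0.17, -0.02 and -0.35, nor was *Slc2a4*, the insulin-responsive transporter of muscle and fat, at -0.71 (edgeR with Benjamini-Hochberg adjusted p = 0.131). At an unadjusted edgeR p under 0.05, 3 of the 6 were lower, *Slc2a4*, *Slc2a5* and *Slc2a9*. At least 2258 of all 12147 tested genes passed this level in either direction. DESeq2 called 2 higher and 1 lower, and limma-voom called 2 higher. The part of the skeletal muscle markers in the *Slc2a4* values was not tested. None of 7 fructose and polyol genes, where *Khk* belongs by role, was called by edgeR. At an unadjusted p under 0.05, 1 was higher and 2 were lower, *Sord* at -0.18 and *Slc2a5* at -0.35. DESeq2 called 1 higher and both of these lower, and limma-voom called 1 lower. None of 11 genes of pyruvate fate was called by edgeR, DESeq2 or limma-voom or had an unadjusted edgeR p under 0.05, with *Mpc2*, *Pdhb* and *Pdk2* at -0.12, 0.06 and -0.01.

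**Figure D5:**
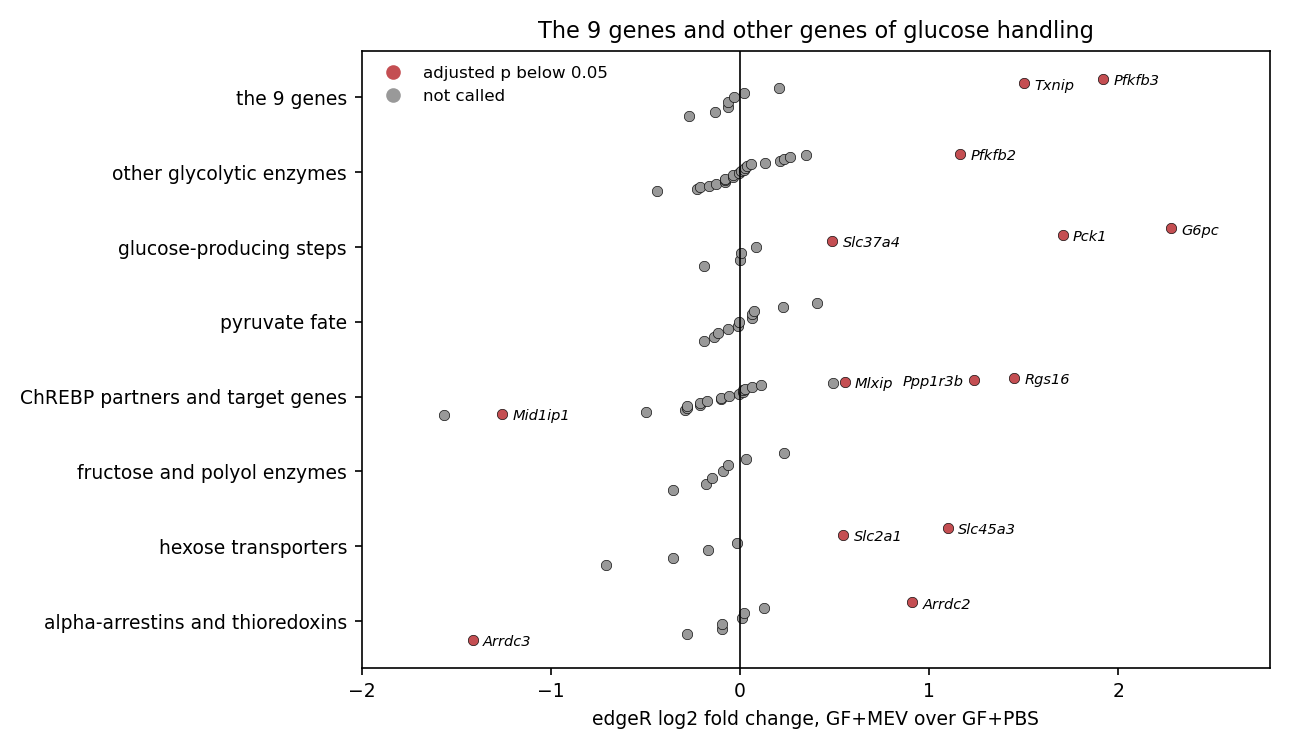
EdgeR log2 fold change of GF+MEV over GF+PBS (horizontal axis) for the 9 genes and 7 lists of related genes, 1 point per gene, red and named where the adjusted p was under 0.05. The called genes of the 9, *Txnip* and *Pfkfb3*, lie at 1.50 and 1.92, beside *G6pc* at 2.28 and *Arrdc3* at -1.41.

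The summed levels of markers of other cell types overlapped in range between the groups. Single markers without overlap were 2 of 5 tested for leukocytes and 1 of 3 for cholangiocytes, beside 7.39% over all genes. None of the 7 Kupffer cell, 7 endothelial, 7 stellate cell or 5 skeletal muscle markers tested was without overlap. For Kupffer cell, leukocyte and cholangiocyte markers the GF+MEV median lay outside the GF+PBS range. None of the 7 Kupffer cell markers was called by edgeR, DESeq2 or limma-voom, or had an unadjusted edgeR p under 0.05. Of these markers, 2 had changes above 0 and 5 below. Levels of Kupffer cell markers were 192 to 389 CPM (median 205) in GF+MEV and 232 to 341 CPM (median 303) in GF+PBS livers. In the same order, endothelial markers summed to 136 to 217 and 154 to 209 CPM, and stellate cell markers to 179 to 259 and 209 to 221 CPM. Leukocyte markers summed to 8.49 to 16.2 CPM (median 9.94) in GF+MEV and 14 to 17.2 CPM (median 15.5) in GF+PBS livers. Of 5 tested, 2 were called lower and without overlap (*Cd79a* and *Cd79b*), and 5 more, *Cd3e*, *Nkg7*, *S100a8*, *S100a9* and *Ly6c2*, were not analysed here. Cholangiocyte markers summed to 28.1 to 79.3 CPM (median 40.9) in GF+MEV and 23.2 to 29.7 CPM (median 28.8) in GF+PBS livers. Of 3 tested, 1, *Krt19*, was called higher, at 0.964 to 16.8 CPM in GF+MEV and 0.303 to 0.781 CPM in GF+PBS livers. *Spp1* and *Sox9* were not called and had opposite signs, at 0.52 and -0.98 on the log2 scale. At an unadjusted edgeR p under 0.05, 2 of the 3 were higher and 1 was lower. *Krt7*, *Epcam* and *Cldn7* were not analysed here. The endothelial markers *Lyve1* and *Clec4g* were called in opposite directions, at 0.84 and -0.48, and the hepatocyte markers *Hnf4a* and *Cps1* were called higher, at 0.45 and 0.38. The part of these markers in the rise of *Txnip* and *Pfkfb3* was not tested.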

How the data were processed

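Raw read counts per Ensembl gene were deposited by the authors without normalization. Per the labels and the study's methods, the authors extracted total RNA from whole liver, prepared NEBNext Ultra libraries, demultiplexed with bcl2fastq 2.17, aligned with STAR 2.7.3a to GRCm38, counted with HTSeq and removed genes below 20 counts, and every gene of the table reached at least 20 in at least 1 column. The HTSeq version, annotation and strand setting are not given in the sources used here. The table held 5 further columns of values that matched no described sample, and these were not used.

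Samples were grouped by the treatment in their labels, 5 livers each. Libraries held 15746119 to 20523649 counts. A gene entered the tests if its counts over the 10 libraries summed to 20 or more (12147 of 12148 genes). The main test was the quasi-likelihood test of edgeR 4.0.16 (R 4.3.3) on treatment, after TMM normalization and with Benjamini-Hochberg adjustment. The study used DESeq2. Standard errors were taken from log2 CPM (prior count 2) and 95% intervals from limma-voom (limma 3.58.1). Symbols, positions and exon lengths came from GENCODE M21 (5 identifiers without a symbol), promoters from RefSeq on GRCm38.p6. The ratio was compared by exact two-sided permutation of the mice. The fits were tested on simulated data.

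The 9 genes and all lists were chosen with earlier results of these data known. Named were the 9 genes, called genes of each list, up to 3 of the most abundant genes not called in each list, the 3 genes most like the called member with the smallest p, and called markers. *Pfkm*, *Pfkfb4*, *Arrdc1* and *Arrdc4*, relatives of the 9, and *Slc2a4* were named outside this rule after their values were seen. Some genes that the rule names, and 1 planned ratio, are not reported here. Alternatives were DESeq2 1.42.0, limma-voom, other normalizations and filters, a replicate block, each liver left out, and summed GF+PBS livers.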

Additional observations from a re-analysis of the deposited data

Results flagged for a closer look

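Within groups of 5 livers, 44 sets of values were searched for a liver far from the rest, by the ratio of its gap to the range of the group, which chance passes in about 1 in 20 groups, and 1 liver passed. *Slc37a4*, the transporter that feeds glucose-6-phosphatase, stood at 179 CPM in GF+MEV replicate 4, where the 4 others of its group had 223 to 236 CPM.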

How the results depend on the processing

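For the 9 genes, 19 alternatives each gave 171 values, of which 164 kept the direction and side of the threshold and 7 turned sign among genes not called. *Pfkl* turned to -0.022 with upper-quartile normalization and -0.049 with library size only, and ranged from -0.015 to 0.074 with 1 liver left out, turning without GF+MEV replicates 1 and 3 and GF+PBS replicate 2. *Slc2a2* ranged from -0.106 to 0.046 with 1 liver left out, turning without GF+PBS replicates 4 and 5. *Txnip* ranged from 1.43 to 1.57 (highest adjusted p 1.2e-05) and *Pfkfb3* from 1.80 to 2.08 (8.3e-05), and these 2 genes were the members called under every alternative run. The 12 called list genes were called in the same direction under all 19. Over all genes, 928 calls became 561 with the GF+PBS livers summed by pairs, with fewer samples (552 shared), and 696 to 926 with 1 liver left out. The *Pfkfb3* to *Pfkfb1* difference was 1.74 with p = 0.0625 under the replicate block, the smallest p that exact sign flips of 5 pairs allow. Whether replicate numbers pair the livers is not given in the sources used here, and weak correlations cannot decide it. For replicates 1 to 5, deviations of same-numbered livers correlated at 0.166, -0.0844, -0.0522, -0.188 and 0.0586. The highest correlation with a GF+PBS liver of another number was 0.102, 0.058, 0.105, 0.121 and 0.0551. The replicate block gave 792 calls over all genes (725 shared) and 2 among the 9 genes.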
